A study of Mus musculus with 8 samples.

Results

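Pseudogene transcripts were examined in undifferentiated mouse P19 cells, a single line of wild-type embryonal carcinoma cells. A transcript was taken as a pseudogene transcript if the deposited annotation gave its family as a kind of pseudogene, or if its gene symbol ended in "-ps" with or without a number (Ftl1-ps1 was left out). The rule itself uses the annotation and the symbol only. Of 28019 mRNA-class transcripts with reads, 433 met it, from 420 genes, and they held 46430 of 2005242 reads. The family named 397 of them and the symbol 146, with 110 named by both.

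The cells had been given MHY1485 (MHY), a compound used to raise mTOR activity, at 10 µM, or the same amount of its solvent DMSO, for 24 h or 48 h. Poly(A) RNA was read molecule by molecule by nanopore direct RNA sequencing, which gives, for every molecule, the transcript it mapped to and an estimate of its tail length. Each of the 4 groups had 2 libraries. Libraries carry the numbers of the deposited table, 21 and 23 at 24 h and 24 and 25 at 48 h for both treatments, and values are given below in that order. The labels number them as replicates without naming separate cultures, while the study's methods call them biological replicates. A library held 185694 to 329615 mRNA-class reads whose tail estimate passed Nanopolish's quality tag. All 10 listed markers of undifferentiated P19 cells had reads, Pou5f1 at 2294 to 2803 RPM (reads scaled to 1000000 mRNA-class reads of a library). Others were low, with Sox2 at 85 to 171 RPM, Nanog at 25 to 76 RPM and Dppa5a at 11 reads in all. Among neuronal markers 6 of 7 had reads too, 569 in all. Of these markers, Stmn2 reached 166 to 323 RPM and Dcx was at 0.

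A pseudogene is a copy of a gene that is held to have lost the function of the original. Processed pseudogenes arise when an mRNA is reverse transcribed and put back into the genome, so they lack introns, often match the mRNA almost base for base and can end in a stretch of A left by the tail of the copied mRNA. Unprocessed pseudogenes come from copied DNA, and stretches of mitochondrial DNA inserted into chromosomes are a special case. Genes for ribosomal proteins, which build the small (Rps) and large (Rpl) ribosomal subunits, have many processed copies. A read that fits both copy and original is placed on one of them by the aligner, and the mapping quality states how clear that choice was, from 0 (another place fits as well) to 60.

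The 3′ ends show how close the members and their originals were. The last 30 bases of a transcript are given below 5′ to 3′ for 3 ribosomal protein copies with their parent genes, because these pairs carry the comparison of tails, and for a copy of mitochondrial DNA with the mitochondrial gene that it copies. Capitals mark the run of A at the end of the member, and all sequences are from GENCODE vM21 transcripts (mm10).
Rps26-ps1: gttgtactttAAAAAAAAAAAAAAAAAAAA
Rps26: cctggaaaaataaaatggaagttgtacttt
Rpl9-ps6: ttatatattgAAAAAAAAAAAAAAAAAAAA
Rpl9: ttttgggagaataaaagacttatatattga
Rps13-ps1: ataaaatcactttgagtAAAAAAAAAAAAA
Rps13: caagcaataaaatcactttgagtaacttgg
Gm28437: ctatacgtctccatttattgatgaggatct
mt-Co3: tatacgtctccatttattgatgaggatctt

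Rps26-ps1 lies on the minus strand at chr8:107439131-107439579 as 1 exon, whereas Rps26 has 4 exons at chr10:128624537-128626747. The match between them ended at the last base of Rps26, and a run of 20 A followed in the copy. Rpl9-ps6 (chr19:32465865-32466578, 1 exon, minus strand) also ended in 20 A, and Rps13-ps1 (chr8:87047689-87048226, 1 exon, plus strand) in 13 A. Runs of 29 A stood at the end of Rpl10-ps3 (chr9:50344201-50344968) and 3 bases before the end of Rps2-ps10 (chromosome 18). Of 26 members with at least 30 reads, 10 had a run of at least 10 A within their last 60 bases, against 128 of 6223 other transcripts with as many reads (2.06%). Members with such a run and a named parent gene matched it at 99.1 to 100% of aligned bases.

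Reads were concentrated on few members. Of the 433 transcripts, 212 had 1 read over all libraries, 58 had at least 10 and 35 had reads in all 8 libraries. The 25 with most reads held 97.2% of the pseudogene reads, and the first 4 alone held 69.2%. The other 408 shared 1321 reads, with at most 46 on any of them. Because 1 read stands for 1 molecule, RPM values were not divided by transcript length.

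Rps2-ps10, a copy of the small-subunit protein gene Rps2, held 17500 reads, 37.7% of all reads on pseudogene transcripts. At 24 h it had 8245 and 8594 RPM under DMSO and 8634 and 8724 under MHY. At 48 h it had 8399 and 8731 under DMSO and 9509 and 8622 under MHY. The values varied little among the libraries and the treatments overlapped at 48 h. Next came Rps26-ps1 with 6599 reads (3059 to 3524 RPM), Rpl9-ps6 with 4414 (2019 to 2412) and Rpl10-ps3 with 3597 (1624 to 2090). Rps13-ps1 had 2348 reads (1007 to 1443 RPM) and Rpl36-ps12 1176 (359 to 898). These 6 are copies of genes for ribosomal proteins. Among the members named "-ps", the 55 with a small-subunit parent held 57.8% of the pseudogene reads, the 60 with a large-subunit parent 20.2% and the other 31 4.72%. The last group includes Nutf2-ps1 (800 reads), whose parent encodes a factor that carries Ran into the nucleus, Ndufb1-ps (545 reads), named for a subunit of respiratory complex I, and Gpx4-ps2 (389 reads), whose parent encodes a glutathione peroxidase that removes lipid peroxides. Ndufb1-ps has 3 exons and matched no coding transcript in the sequence search, and its named parent had 0 reads. No member with a parent in its name had a translation factor as parent.

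**Figure D1:**
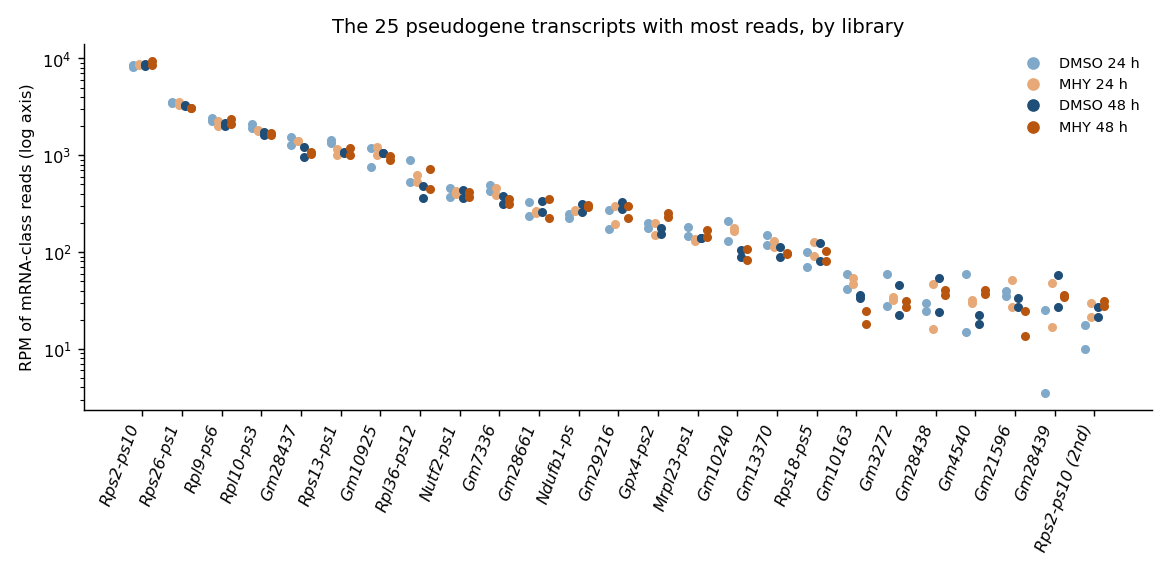
RPM, reads scaled to 1000000 mRNA-class reads of a library (log axis), of the 25 pseudogene transcripts with most reads, 1 point per library, coloured by treatment and time. Rps2-ps10 had 8245 to 9509 and Rps26-ps1 3059 to 3524, and most other members lay more than an order of magnitude below Rps2-ps10.

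The annotation of the family did not follow the name. The 340 members filed as processed pseudogenes held 6297 reads, while 25 filed as processed transcripts held 24616, among them Rps2-ps10 and Rps26-ps1. A further 11 were filed as protein coding and held 9645 reads, including Rpl9-ps6, Rpl10-ps3 and Nutf2-ps1. The 21 unprocessed pseudogenes held 5700 reads. Median tails of these families were 83.4 nt for processed pseudogenes, 95.1 nt for processed transcripts, 86.5 nt for those filed as protein coding and 67.0 nt for unprocessed pseudogenes.

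How reads were divided between a member and the gene that it copies was examined next. For Rps2-ps10 the share of the pair's reads on the member was 98.2%, with 97.8 to 98.6% over the 8 libraries. The parent gene Rps2 itself held 321 reads. The member also took most reads of the pair for Nutf2-ps1 (84.3%, range 79.4 to 88.5%), for Rps26-ps1 (74.9%, 70.3 to 79.6%) and for Rpl9-ps6 (63.9%, 57.2 to 70.9%). Mrpl23-ps1, a copy of the gene for a mitochondrial ribosomal protein, took 73.8% of the reads of its pair on 295 reads (61.5 to 86.4%). Rpl10-ps3 and Rpl10 divided their reads almost evenly (49.0% on the member, 46.4 to 52.6%). The parent held most reads for Rps13-ps1 (38.4% on the member, 32.3 to 48.0%), Gpx4-ps2 (25%, 20 to 27.8%) and Rpl36-ps12 (15.5%, 10.1 to 23.3%). Rps18-ps5 took 3.05%.

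Members with no parent in their name were set beside the gene whose coding or mitochondrial transcript matched them best. Gm7336 matched Gapdh, the glycolytic enzyme, at 99.8% of aligned bases and took 3.77% of the reads of that pair. Gm10240 and Gm13370 matched Rpl21, a large-subunit protein gene, and took 5.79% and 5% of the reads of their pairs. All 3 were single-exon processed pseudogenes without an A-run of 10 bases at the end.

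**Figure D2:**
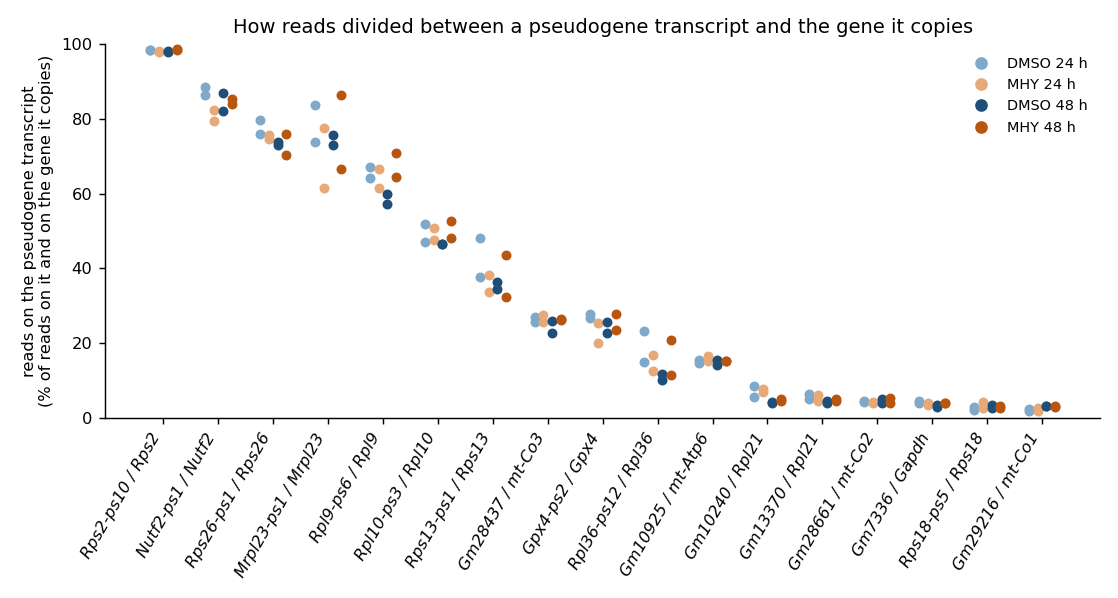
Reads on a pseudogene transcript as a percentage of the reads on it and on the gene that it copies, 1 point per library, for the members with at least 198 reads, ordered from high to low. Rps2-ps10 stood near the top at 97.8 to 98.6% in every library, and the shares of the other pairs fell from there to under 5%.

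Mapping quality differed between the members as widely as the read share did. Over all members 46.9% of reads reached a mapping quality of 10 and 19.4% had a quality of 0, against 71.7% and 13.5% for the other mRNAs. Only 44 reads of members were also listed on a further transcript, so a low quality, not a second line in the table, marked the reads that fitted elsewhere. The table had 9 pairs of a member and a named parent with enough reads in each library, and each was compared within the 8 libraries by an exact two-sided sign-flip permutation test, whose smallest p is 0.00781. Reads of Rps2-ps10 reached quality 10 in 82.4 ± 1.14% (SD, n = 8) and those of Rps2 in 39.8 ± 8.09% (adjusted p = 0.00879, exact test). For Rps26-ps1 the share was 70.2 ± 2.69% and for Rps26 22.4 ± 1.77% (n = 8, adjusted p = 0.00879, exact test). Mapping quality was thus higher on these members than on their parents, whose values pool all coding transcripts of the gene. This does not show from which gene the reads came.

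In Rpl9-ps6 and Rpl10-ps3 the share was also higher than in the parent, by 3.73 and 7.63 percentage points (adjusted p = 0.00879 for each, exact test), but it was low in both partners. It reached 16.4 ± 2.32% in Rpl9-ps6 and 12.6 ± 1.74% in Rpl9 (n = 8), and 14.9 ± 1.95% in Rpl10-ps3 and 7.23 ± 1.08% in Rpl10 (n = 8). Lower shares than in the parent were found for Rps13-ps1 (difference of -21.5 points), Rpl36-ps12 (-36.8), Nutf2-ps1 (-20.0) and Gpx4-ps2 (-51.1), each with an adjusted p of 0.00879 by the exact test. Rps18-ps5 differed from Rps18 by -1.92 points (adjusted p = 0.102, exact test). Most of these differences depended on the bound. With a bound of 1 in place of 10, Nutf2-ps1 turned to 37.7 points, Gpx4-ps2 no longer passed the test (-2.09 points, adjusted p = 0.258, exact test) and Rps18-ps5 did (-13.2 points, adjusted p = 0.0176, exact test). Rps26-ps1 then differed by 7.36 points, Rps13-ps1 by -5.43 and Rpl36-ps12 by -15.2, each smaller than at the bound of 10, and Rpl9-ps6 by 7.36.

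The poly(A) tail of members was compared with that of the parent genes in the same libraries. Tails of reads placed on the pseudogene transcript were shorter in 7 of 9 pairs, at an adjusted p under 0.05 in the exact test. The test compares reads as the aligner placed them. Member and parent were nearly identical, so it cannot show from which gene of a pair a read came. The median tail of Rpl9-ps6 was 80.4 and 84.6 nt under DMSO and 79.0 and 89.9 nt under MHY at 24 h, and 81.5 and 82.6 nt under DMSO and 76.5 and 80.1 nt under MHY at 48 h. That of Rpl9 was 108.4 to 117.6 nt in the same libraries, so the values did not overlap. The mean difference was -31.0 ± 5.03 nt (SD, n = 8, adjusted p = 0.0117, exact test). Rps13-ps1 had a similar difference, with 70.1 ± 7.03 nt against 101.1 ± 7.01 nt for Rps13 (-30.9 ± 7.96 nt, n = 8, adjusted p = 0.0117, exact test).

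Smaller differences were seen for Rps26-ps1 (91.9 ± 5.17 nt against 103.1 ± 5.43 nt for Rps26), Rpl10-ps3 (91.3 ± 5.64 against 102.7 ± 4.98 nt for Rpl10) and Rpl36-ps12 (76.9 ± 4.01 against 91.0 ± 4.13 nt for Rpl36). Here the member was shorter in all 8 libraries, by -11.2, -11.4 and -14.2 nt on average (adjusted p = 0.0117 for each, exact test). Gpx4-ps2 was shorter than Gpx4 by -12.6 ± 6.61 nt (n = 8, adjusted p = 0.0117, exact test), in all 8 libraries. Nutf2-ps1 was shorter than Nutf2 in 7 of 8 libraries, by -22.8 ± 13.4 nt (n = 8, adjusted p = 0.0201, exact test). The minimum of 10 reads of each partner per library, used so far, was dropped for alignments of mapping quality 10 or more. With these alignments, 6 of the 7 pairs that could be compared passed the test. The mean difference was then further from 0 for Nutf2-ps1 (-42.7 nt), Rps13-ps1 (-47.0 nt) and Rps26-ps1 (-17.0 nt), and it varied more between libraries in these 3.

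Rps2-ps10 and Rps18-ps5 did not pass the test. Rps2-ps10 had a median tail of 96.3 ± 3.93 nt and Rps2 one of 96.3 ± 11.6 nt (difference -0.0819 ± 11.0 nt, n = 8, adjusted p = 0.984, exact test). The parent's value rested on 306 reads of coding transcripts and ran from 80.8 to 111.1 nt. When alignments were limited to mapping quality 10 the difference became 8.94 nt. Rps18-ps5 had 198 reads and differed from Rps18 by -7.06 ± 11.8 nt (n = 8, adjusted p = 0.158, exact test). It is the member among the 9 without an A-run at its end.

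**Figure D3:**
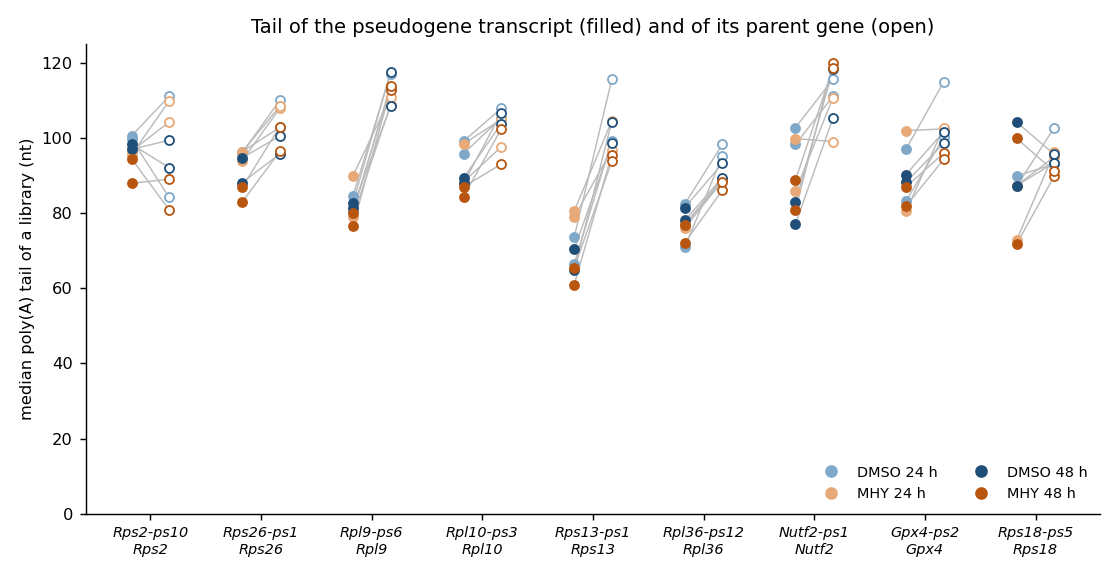
Median poly(A) tail (nt) in each library for 9 pseudogene transcripts (filled points) and their parent genes (open points), joined within a library and coloured by treatment and time. The lines rise from member to parent in all 8 libraries for 6 of the pairs, with the steepest rise for Rpl9-ps6 and Rps13-ps1, and cross for Rps2-ps10 and Rps18-ps5.

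Reads of a member were then sorted by how many bases of its A-run the alignment covered. This is a description, because the position of the alignment end and the tail come from the same read. Reads that covered fewer than 5 bases of the run had longer tails. In Rpl9-ps6 the median was 113.7 nt for 168 such reads, 82.9 nt for reads covering 5 to 9 bases and 77.1 nt for reads covering at least 10. The first value lay near the 112.8 nt of Rpl9. In Rps26-ps1 the 3 values were 112.3, 87.0 and 82.3 nt, in Rpl10-ps3 113.9, 86.0 and 81.7 nt, and in Rps2-ps10 112.7, 93.3 and 87.0 nt. The share of reads at mapping quality 10 or more changed with this cover. It was 1.19, 7.06 and 33.6% in Rpl9-ps6 and 80.8, 68.0 and 63.2% in Rps26-ps1. A limit on mapping quality therefore also selected reads by cover, towards opposite sides in these members.

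By library, the reads of Rps26-ps1 covering fewer than 5 bases had a median of 113.0 ± 5.41 nt (n = 8) and the others one of 85.5 ± 5.89 nt, while Rps26 stood at 103.1 nt, between them. The first kind had the longer median in all 8 libraries for Rps2-ps10, Rps26-ps1, Rpl9-ps6, Rpl10-ps3 and Nutf2-ps1. In Rpl36-ps12 this held in 6 of the 7 libraries with at least 10 such reads and in Gpx4-ps2 in both libraries with as many, while Rps13-ps1 had no library with 10. In Rpl36-ps12, Nutf2-ps1 and Gpx4-ps2 the reads reaching at least 10 bases had longer tails than those reaching 5 to 9 (82.5 against 71.2 nt, 81.7 against 73.1 nt and 94.0 against 81.7 nt). Most reads were of the kind that entered the run. At least 5 bases were covered by 96.2% of reads in Rpl9-ps6, 98.5% in Rps13-ps1 and 75.6% in Rps2-ps10. The part of the alignment end in the shorter tails was not tested.

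**Figure D4:**
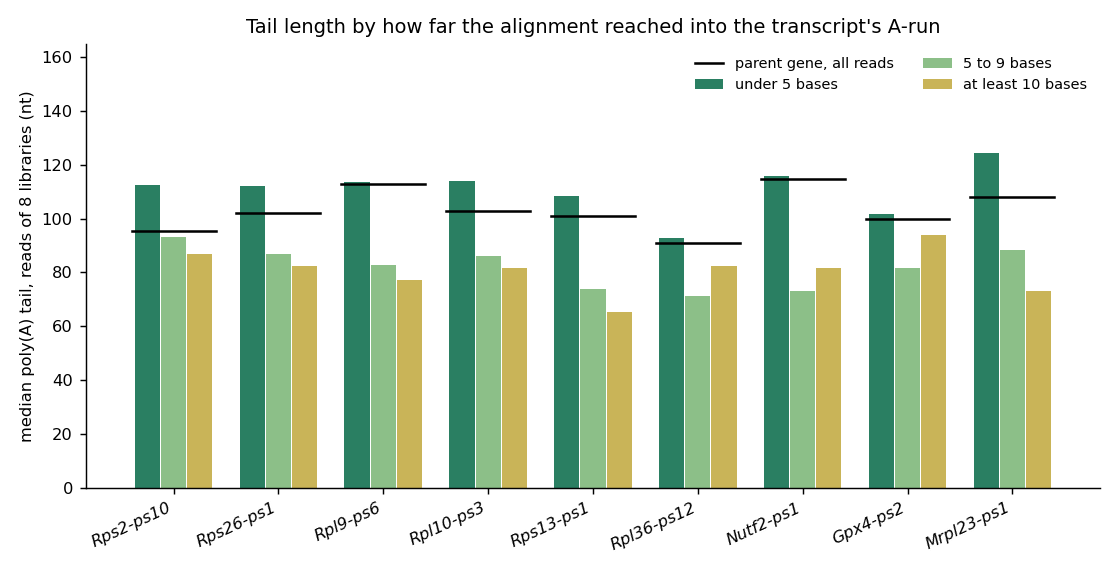
Median poly(A) tail (nt) over the reads of all 8 libraries for 9 members with an A-run, by the number of run bases that the alignment covered (bars from 0), with the parent gene's median as a black line. The bar for fewer than 5 bases was the highest in each of these members, and it rested on 24 reads in Mrpl23-ps1 and 35 in Rps13-ps1.

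A separate set of members came from copies of mitochondrial DNA. All 7 lie on the minus strand of chromosome 1, from Gm28439 (chr1:24611535-24612410) to Gm29216 (chr1:24615706-24616197), and are filed as unprocessed pseudogenes. They held 5660 reads, 99.7% of them with a mapping quality of 0. Gm28437 was identical over its whole length to mt-Co3 and Gm28661 to mt-Co2, genes for subunits of cytochrome c oxidase, as was Gm10925 to mt-Atp6, which encodes a subunit of ATP synthase. The share of reads on the copy differed from pair to pair. Gm28437 took 25.7% of the reads of its pair (22.7 to 27.6% over the libraries), Gm10925 15.3% (14.0 to 16.4%), Gm28661 4.38% (3.90 to 5.41%) and Gm29216 2.73% (1.95 to 3.30%). In Gm28438 and Gm28439, with 68 and 60 reads, the share ran from 2.54 to 7.48% and from 0.255 to 3.19%.

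Their tails were short and close to those of the mitochondrial transcripts. Median tails over all libraries were 69.2 nt for Gm28437 and 69.8 nt for mt-Co3, 68.3 nt for Gm10925 and 67.8 nt for mt-Atp6, and 53.4 nt for Gm28661 and 53.8 nt for mt-Co2. Gm29216 covers 483 nt of the gene for another oxidase subunit, mt-Co1, and had 66.1 nt against 67.6 nt. Most reads of mt-Co1 reached mapping quality 10 (96.7%), but nearly none of Gm29216 did (0.192%). The copies had 88.1% of their tails in the class of 30 to 90 nt and the 13 mitochondrial transcripts had 91.0%, against 40.5% in other mRNAs. Whether any of these reads came from chromosome 1 cannot be told apart from mitochondrial origin where copy and gene are identical.

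All members together had shorter tails than other mRNAs. The median tail of a library was 87.1 and 91.0 nt under DMSO and 86.0 and 88.1 nt under MHY at 24 h. The 48 h libraries had 85.7 and 88.7 nt under DMSO and 81.2 and 84.7 nt under MHY. Other mRNAs had 92.5 to 102.6 nt, and the members lay below them in every library, by -14.3 to -10.7 nt. This gap depended on which members were counted. Without the chromosome 1 copies it was -7.00 nt on average, without Rps2-ps10 -20.1 nt, and with alignments of mapping quality 10 or more -4.72 nt, against -12.5 nt for all members.

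The comparison of MHY with DMSO asked whether the treatment changed the level or the tails of these transcripts. Members took 2.41 and 2.40% of reads under DMSO and 2.39 and 2.32% under MHY at 24 h, and 2.22 and 2.25% under DMSO and 2.34 and 2.21% under MHY at 48 h. The Wilson 95% interval, which covers counting error only, ran from 2.15 to 2.27% for the lowest of these libraries and from 2.34 to 2.48% for the highest. Treatments overlapped at 48 h. Sequencing runs are taken from the sample entries that the deposited table gives to its reads, and they divide the reads of the same libraries. The difference between the treatments was -0.0534 points at 24 h and 0.0410 points at 48 h, and it went both ways between the sequencing runs at 24 h (-0.0573, -0.0936 and 0.0107 points in the 3 runs) and one way at 48 h (0.0771 and 0.0150 in the 2 runs). At 24 h it ranged from -0.0890 points (without MHY replicate 21) to -0.0177 points (without MHY replicate 23). At 48 h it turned to -0.0213 points without MHY replicate 24 and was 0.103 points without MHY replicate 25 and 0.0233 points without DMSO replicate 24.

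Among single members, read counts were fitted by limma voom with 4120 transcripts, of which 24 were members (the other 409 had too few reads). None of the 24 was called at an adjusted p under 0.05 at 24 h (0.0485% of all transcripts tested were), at 48 h (1.53%) or in the difference of the effects (0.218%), and 1, 3 and 2 members had an unadjusted p under 0.05, beside 4.51%, 12.8% and 7.04% of all transcripts. The median log2 change of the members was -0.03 at 24 h and -0.16 at 48 h, beside -0.02 for all transcripts at both times. Rps13-ps1, for example, had 1343 and 1443 RPM under DMSO and 1169 and 1007 under MHY at 24 h, which do not overlap (log2 change -0.38, SE 0.135, adjusted p = 0.883 by limma, but 0.0182 with no filter on low counts). At 48 h its values overlapped, with 1086 and 1068 under DMSO and 1190 and 1015 under MHY. Rps26-ps1 had 3289 and 3225 under DMSO and 3059 and 3063 under MHY at 48 h (-0.19, adjusted p = 0.376 by limma, but 9.25e-08 with no filter).

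Tails of 30 to 90 nt, the ~60-nt class, were more frequent under MHY over the members as a whole. Their share was 50.6 and 47.4% under DMSO and 52.5 and 50.3% under MHY at 24 h, which overlap. At 48 h it was 52.0 and 49.9% under DMSO and 56.0 and 52.4% under MHY, which do not. The mean difference was 2.41 points at 24 h and 3.31 points at 48 h, and it had the same sign in each of the 5 runs (1.49, 2.84 and 3.48 at 24 h, 3.76 and 3.01 at 48 h). The runs divide the reads of the same libraries, so this agreement does not replicate the treatment. Single libraries moved the size of the difference. At 24 h it was 0.801 points without DMSO replicate 23, 1.30 without MHY replicate 21 and 4.02 without DMSO replicate 21, and at 48 h 1.52 points without MHY replicate 24 and 5.09 without MHY replicate 25. At 48 h it fell to 1.12 points without Rps2-ps10 and was -0.883 points in the members with a pseudogene family, so that the sign rested on which members were counted. The median tail differed by -2.01 nt at 24 h and by -4.26 nt at 48 h. Other mRNAs had medians of 100.8 and 102.6 nt under DMSO and 100.3 and 101.6 nt under MHY at 24 h, and of 96.8 and 99.4 nt under DMSO and 92.5 and 98.4 nt under MHY at 48 h, so both MHY means were lower there too. At 24 h the difference of the members was -0.0725 nt without DMSO replicate 23, -0.980 without MHY replicate 21, -3.04 without MHY replicate 23 and -3.95 without DMSO replicate 21. At 48 h it was -2.51 nt without MHY replicate 24, -2.79 without DMSO replicate 25 and -0.683 nt in the members with a pseudogene family.

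For single members the ~60-nt share was fitted by limma with 1876 transcripts, 18 of them members. At 24 h none was called (0% of all transcripts), with 2 members at an unadjusted p under 0.05 (4.37% of all transcripts). At 48 h 2 members were called, 1 in each direction, against 0.32% of all transcripts (0.267% higher and 0.0533% lower under MHY), and 6 had an unadjusted p under 0.05 (6.24%). In the difference of the effects none was called (0%), with 1 at an unadjusted p under 0.05 (3.78%). The median change of the 18 members was 0.17 log2 odds at 24 h and 0.11 at 48 h, beside 0.05 and 0.04 for all transcripts.

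Rps2-ps10 was the member called higher. At 24 h 37.0 and 37.9% of its tails were in the ~60-nt class under DMSO and 42.5 and 42.4% under MHY. At 48 h the values were 41.9 and 39.8% under DMSO and 51.1 and 44.9% under MHY. The treatments did not overlap at either time. The change was 0.30 log2 odds at 24 h (SE 0.0835, adjusted p = 0.569 by limma) and 0.47 at 48 h (SE 0.0744, adjusted p = 0.000401 by limma). At 48 h the call was lost without MHY replicate 24 (0.25, adjusted p = 0.977) and without DMSO replicate 25 (0.39, adjusted p = 0.0981), with only the 4 libraries of that time in the fit (adjusted p = 0.934) and without weights (0.42, adjusted p = 0.997). At 24 h the change was called with classes of 40 to 80 nt (0.38, adjusted p = 0.0270 by limma) and with only the 4 libraries of that time (adjusted p = 0.0186 by limma). It was also called there with the library numbers of the table as a replicate block.

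The share of its reads covering at least 5 bases of the A-run moved with this result at 48 h, with 70.6 and 71.2% under DMSO and 80.7 and 73.6% under MHY, but overlapped at 24 h (75.3 and 79.4% against 74.8 and 77.2%). Among reads covering at least 5 bases, the ~60-nt share at 48 h was 49.9 and 46.2% under DMSO and 56.0 and 51.1% under MHY. Among those covering fewer, it was 22.9 and 24.0% under DMSO and 30.6 and 27.5% under MHY. Within each kind of read the MHY libraries were thus above the DMSO libraries, and at 24 h as well (41.4 and 42.7% against 48.1 and 47.0%, and 23.5 and 19.3% against 26 and 27.0%). These splits are descriptions without a test. Other mRNAs had 42.0 and 40.4% under DMSO and 43.7 and 40.5% under MHY at 48 h.

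Gm29216, the mt-Co1 copy, was the member called lower at 48 h (-3.41 log2 odds, SE 0.710, adjusted p = 0.0164 by limma). Its ~60-nt shares were 87.1 and 100% under DMSO and 87.5 and 83.3% under MHY at 48 h, which overlap. DMSO replicate 25 had all of its 109 reads in the class. Without that library the change was -0.16 (adjusted p = 0.996), so the call rested on it, and it was also lost when any 1 of the 4 libraries of 24 h was left out (adjusted p of 0.196 to 0.280), without weights, with classes of 40 to 80 nt, with 0.1 read added and with only the 4 libraries of 48 h (adjusted p of 0.0655 to 0.997). At 24 h the values were 89.1 and 96.0% under DMSO and 90 and 83.3% under MHY. The gene that it copies, mt-Co1, was left out of the fit. The share of mt-Co1 was 86.8 and 91.8% under DMSO and 83.3 and 81.5% under MHY at 48 h, lower under MHY without overlap, and that of mt-Atp6, mt-Co2, mt-Co3 and mt-Nd4 was also lower under MHY without overlap at that time, while mt-Nd3 overlapped (94.7 and 97.2% against 95 and 90.5%). These values of the mitochondrial genes are given without a test, and 99.6% of the reads of Gm29216 had a mapping quality of 0. The other 16 members were not called. Rps26-ps1, for example, had 48.8 and 43.8% under DMSO and 52.5 and 49.1% under MHY at 48 h (0.30 log2 odds, adjusted p = 0.373 by limma). Gm10925 had 83.0 and 89.5% against 81.9 and 76.6% (-0.78, adjusted p = 0.132 by limma). With 1 library left out, the change ranged from 0.13 to 0.42 for Rps26-ps1 and from -1.10 to -0.30 for Gm10925.

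**Figure D5:**
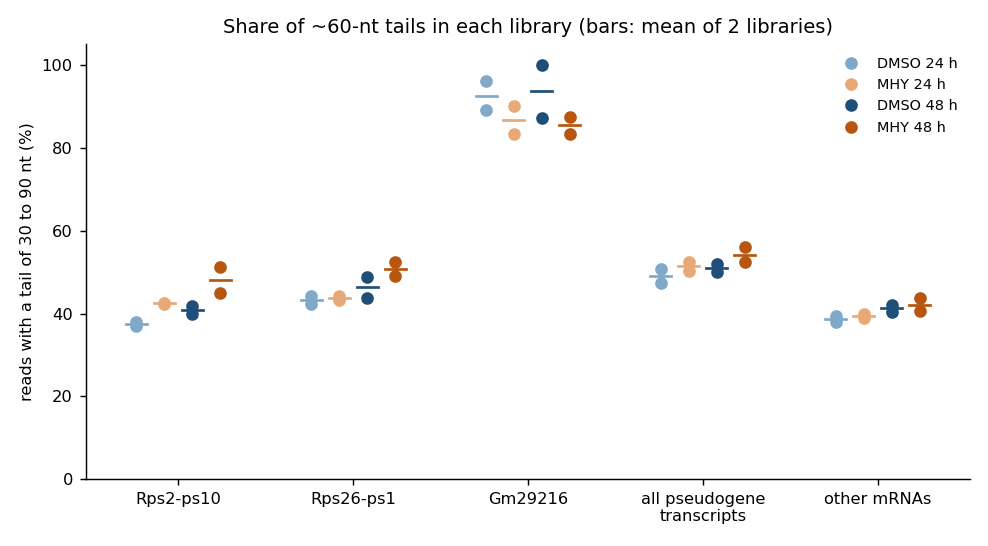
Percentage of reads with a tail of 30 to 90 nt in each library (points) and the mean of the 2 libraries (bars) for Rps2-ps10, Rps26-ps1, Gm29216, all pseudogene transcripts and other mRNAs. The MHY points of Rps2-ps10 lie above its DMSO points at both times, and a single DMSO library at 100% sets Gm29216 apart at 48 h.

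Tails under 30 nt made up 1.91% of the reads of all members and 2.95% of those of other mRNAs. The order turned with the choice of members, since Rps2-ps10 had 0.531% but processed pseudogenes 3.95%, members with a pseudogene family 3.02% and Rps13-ps1 5.75%. At 24 h their share was 1.78 and 1.71% under DMSO and 1.55 and 1.35% under MHY. At 48 h it was 1.98 and 1.51% under DMSO and 2.93 and 2.23% under MHY. Other mRNAs moved to the same sides without overlap at both times, with 2.36 and 2.75% under DMSO and 2.25 and 2.19% under MHY at 24 h, and 2.89 and 2.59% under DMSO and 4.5 and 3.41% under MHY at 48 h. None of the 18 members was called by limma at 24 h (0% of 1876 transcripts), at 48 h (0.373%) or in the difference of the effects (0%), with 0, 4 and 4 members at an unadjusted p under 0.05, beside 5.81%, 10.6% and 8.58% of all transcripts. The 48 h libraries of the 2 treatments did not overlap in 8 of the 18 members, each with MHY higher, against 26.4% of all transcripts tested with MHY higher and 7.62% with MHY lower. Rps26-ps1 had 2.73 and 1.79% under DMSO and 3.44 and 3.37% under MHY (0.69 log2 odds, SE 0.222, adjusted p = 0.294 by limma). Rps2-ps10 had 0.427 and 0.382% under DMSO and 1.14 and 0.625% under MHY (1.15, SE 0.359, adjusted p = 0.277 by limma).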

How the data were processed

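The deposited table holds 1 alignment per line, 2439710 in all, with no read counts. Guppy was the authors' base caller. They placed reads on mouse GENCODE transcripts (mm10, release vM17 in the methods) by minimap2 (2.20 in the submitters' processing notes), took tail estimates from Nanopolish and barcodes from Deeplexicon. Deposited tail lengths are in nt and not normalized. As deposited, mapping quality is a score given by minimap2, barcode confidence a fraction between 0 and 1, and a position a distance in nt along the transcript. The study set pseudogene transcripts aside in its own comparisons.

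Here the 2027638 alignments tagged PASS (83.1%) were used, 1 per read and transcript of class mRNA. Tails were classed as under 30 nt, 30 to 90 nt (~60-nt) or longer. Lines were counted per transcript, so no count model for deposited counts was used. Transcripts reaching 10 reads in 2 libraries or more entered a limma (3.58.1) voom fit of read number, scaled by median-of-ratios size factors. Those reaching 10 in every library entered a limma fit of class shares as weighted log2 odds (0.5 read added). Both fits took 8 libraries at once and left mitochondrial transcripts out. P-values were adjusted by Benjamini-Hochberg within a contrast over all transcripts tested, and over 9 pairs for the exact sign-flip tests. The parent is the gene named before "-ps", as protein_coding transcripts. A-runs, lengths and matches (blastn 2.17.0) came from GENCODE vM21 transcripts, which held 420 of the 433 members at the same positions. The other 13 had an ID or version that vM21 lacks. Release vM17 was not used here, so the release behind the table was not checked. Named were the 25 members with most reads, called members, parents and best matches (the latter because 44 reads only had a further alignment). The members and lists were chosen with earlier results of these data known. Fits were tested on simulated data. Replicate numbers of the table could not be matched to those of the labels. Python 3.11.15 and R 4.3.3 were used.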

Additional observations from a re-analysis of the deposited data

Results flagged for a closer look

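Of 78 measurements of single members (read number, median tail and both tail classes), 2 had both MHY libraries on one side of both DMSO libraries at 24 h and on the other side at 48 h, as did the <30-nt share over all members. Such a change of side was found in 6.12% of 4120 transcripts for read number and in 4.8% of 1876 for the <30-nt share, against 1 of 24 and 1 of 18 members. The share of tails under 30 nt over all pseudogene transcripts was 1.78 and 1.71% under DMSO and 1.55 and 1.35% under MHY at 24 h, and 1.98 and 1.51% under DMSO and 2.93 and 2.23% under MHY at 48 h, and this difference between the times was not tested. Other mRNAs changed side in the same way, with 2.36 and 2.75% under DMSO and 2.25 and 2.19% under MHY at 24 h, and 2.89 and 2.59% under DMSO and 4.5 and 3.41% under MHY at 48 h. Within the runs of 24 h the effect was -0.551, -0.165 and -0.0274 points, and within those of 48 h 0.893 and 0.798 points. In Rps13-ps1, the copy of a small-subunit protein gene, the same share was 5.20 and 5.33% under DMSO and 4 and 4.81% under MHY at 24 h, and 4.13 and 5.40% under DMSO and 8.85 and 7.08% under MHY at 48 h (difference of the effects 1.06 log2 odds, adjusted p = 0.494 by limma). Mrpl23-ps1 had 179.7 and 146.8 RPM under DMSO and 136.0 and 129.2 under MHY at 24 h, and 139.1 and 139.6 under DMSO and 142.6 and 170.6 under MHY at 48 h (difference of the effects 0.32 on the log2 scale, adjusted p = 0.926 by limma).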

How the results depend on the processing

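Pooled values of the members had no test. With mapping quality of at least 10, MHY minus DMSO was 0.0226 points for the read share and -0.458 points for the <30-nt share at 24 h, and 5.64 points for the ~60-nt share at 48 h, and the tail gap to other mRNAs was -4.72 nt. With only members of a pseudogene family, the values were -0.771 (<30-nt, 24 h), -0.683 nt (median tail, 48 h), -0.883 (~60-nt, 48 h), 1.63 points (<30-nt, 48 h) and -27.9 nt for the gap. Without Rps2-ps10 they were 1.12 points (~60-nt, 48 h) and -20.1 nt. The gap was -11.4 nt at a barcode confidence of 0.75 and -7.00 nt without the chromosome 1 copies, a choice made after seeing the data. With classes of 40 to 80 nt and under 20 nt, the <30-nt difference was -0.0580 points at 24 h and 0.191 at 48 h. Within runs of 24 h it was -0.551, -0.165 and -0.0274, and the read share differed by -0.0936 and 0.0107 in runs 2 and 3.

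Leaving out 1 library at a time gave pooled differences of -0.0890 to -0.0177 (24 h) and -0.0213 to 0.103 points (48 h) for the read share, -3.95 to -0.0725 and -6.01 to -2.51 nt for the median tail, 0.801 to 4.02 and 1.52 to 5.09 points for the ~60-nt share, -0.394 to -0.193 and 0.486 to 1.18 for the <30-nt share, and -12.8 to -12.2 nt for the gap. In each of these 8 cases 7 of the 9 pairs kept a shorter tail at an adjusted p under 0.05, and 8 to 9 differed in mapping quality. The Rps2-ps10 pair reversed with mapping quality of at least 10 (8.94 nt) and varied from -2.31 to 1.95 nt without 1 library, as 1.41, 1.02, 0.246 and 0.0586 nt show. With a quality bound of 1, Nutf2-ps1 reversed to 37.7 points, Gpx4-ps2 lost its call (-2.09 points, adjusted p = 0.258, exact test) and Rps18-ps5 gained one (-13.2 points, adjusted p = 0.0176, exact test). The read count of Rps2-ps10 was near no change and reversed to -0.00117 (no filter, 24 h), to 0.0791 with total reads as scaling and 0.00354 with mapping quality of at least 10 (48 h), and ranged from -0.00749 to 0.0381 and from -0.0623 to 0.0357 without 1 library.

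Calls of single members were few. Without the filter, 1 member was called in read count at 24 h (Rps13-ps1), 1 at 48 h (Rps26-ps1) and 1 in the difference (Gm10925), as opposed to 0, of 433 members in a fit that called 0.214%, 0.761% and 0.343% of 28006 transcripts, and 0 to 1 with 1 library left out (1 at 48 h and in the difference without MHY replicate 25 of 48 h, where 3.67% and 0.967% of all transcripts were called). In the ~60-nt share at 24 h, 1 member (Rps2-ps10) was called with the narrower classes, with 4 libraries only and with the replicate block (0.107%, 0.202% and 0.213% of all transcripts), and 0 to 1 with 1 library left out. At 48 h, in place of 2, the count was 0 without weights, 0 with 4 libraries only, 1 with the narrower classes, 1 with mapping quality of at least 10, 1 with 0.1 read added and 0 to 4 with 1 library left out, in fits that called from 0 to 1.62% of all transcripts. The difference had 0 to 1. The <30-nt calls stayed at 0 under every alternative run. Table numbers did not pair the libraries (correlation of same-number deviations 0.039 and 0.029 for read counts and -0.011 and 0.029 for the ~60-nt share). With them as a replicate block, the calls were 0 in read count and in the <30-nt share, and 1 at 24 h and 3 at 48 h in the ~60-nt share, beside 0.0243% (24 h) and 2.26% (48 h) of all transcripts in read count, 0% and 0.533% in the <30-nt share, and 0.213% and 0.533% in the ~60-nt share. The cause of these changes was not tested. Depth limited single members, since 409 of 433 fell under the read filter for read count and 415 under that for tail classes.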

Other observations

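Among the 25 members with most reads, a second transcript of Rps2-ps10 (ENSMUST00000076842.6), annotated inside the first and without an A-run at its end, held 47 reads with a median tail of 99.7 nt, none of them at a mapping quality of 10. Gm21596, whose best match was Hmgb1, a chromatin protein gene, had the longest median of the 25 at 111.5 nt on 63 reads, and Gm7336, the Gapdh copy, had 107.8 nt against 103.6 nt for Gapdh. The shortest were Gm28438 (48.2 nt, 68 reads) and Gm28439 (49.6 nt, 60 reads), copies of genes for subunits of respiratory complex I (mt-Nd3 at 51.1 nt and mt-Nd4 at 51.6 nt).

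The share of reads that covered at least 5 bases of the A-run was high in the same libraries for several members. In Rpl36-ps12 it was 96.9% in DMSO 24 h replicate 23 and 92.6% in MHY 48 h replicate 24, and 70.7 to 88.6% in the other 6. In Nutf2-ps1 it was 72.0 and 75.8% in those 2 libraries and 53.3 to 66.0% in the others. The share of the pair's reads on the member was also highest there for Rpl36-ps12 (23.3 and 20.9%, against 10.1 to 16.8% in the others), for Rps13-ps1 (48.0 and 43.6%, against 32.3 to 38.1%) and for Rpl9-ps6 (67.2 and 70.9%, against 57.2 to 66.5%). These 2 libraries have different treatments and times, so the pattern does not follow the groups. Counts of the 24 members differed most between the DMSO libraries of 24 h, with a chi-square per degree of freedom of 4.01. It was 1.20 to 1.90 in the other groups, against 1.17 to 1.56 for all 4120 transcripts.

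Nanopolish tags differed between kinds of members. PASS was given to 88.7% of alignments on the 10 named members with an A-run and to 77.3% on the chromosome 1 copies. The other named members had 85.6% and other mRNAs 85.2%. In the same order, the tag ADAPTER was given to 9.49%, 18.2%, 9.51% and 11.1%, and SUFFCLIP to 0.529%, 2.47%, 0.944% and 1.91%.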
